A study of Homo sapiens with 6 samples.

Results

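The 45 genes described here encode the proteins that join epithelial cells to each other, regulators that keep the epithelial state, and factors that drive the epithelial-mesenchymal transition (EMT). They were taken from the deposited table by gene symbol, from a list of names chosen with earlier results of these data known. All 45 were found among the 61552 genes of that table. The list holds 8 cadherins and catenins, 7 desmosome genes, 14 tight junction genes, 10 epithelial regulators, and 6 genes made up of EMT factors and VIM. Poly(A) RNA of SKOV3, a long-established ovarian cancer line of human origin, was sequenced. In the treated group the cells received fenbendazole at 1 µM, a benzimidazole drug against worms that binds tubulin, and in the control group the solvent DMSO. Both groups were treated for 48 h and held 3 libraries each, numbered 7, 8 and 9 for fenbendazole and 10, 11 and 12 for DMSO, as in their titles. The design asks what the drug does to the transcriptome, and here the question is put to the junction and EMT genes. The labels do not say that the libraries of a group were separate cultures, and p-values therefore reflect no more than the spread among these 6 libraries, which may be technical.

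Epithelial cells hold together through adherens junctions, desmosomes and tight junctions. Classical cadherins bind across the cell gap and are tied to actin by catenins, desmosomal cadherins are tied to keratin filaments by plakoglobin, plakophilins and desmoplakin, and claudins and occludin seal the gap with the help of zonula occludens proteins. In EMT, transcription factors of the ZEB, SNAI and TWIST families repress CDH1 and other epithelial genes through E-box sequences, and cells gain N-cadherin and vimentin. Ovarian carcinoma cells often keep cadherins of both kinds.

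Library totals ran from 13170775 to 22128930 counts, so 3 counts correspond to 0.132 to 0.223 CPM (counts made comparable between libraries by library size and TMM factors). One control library, DMSO 11, stood apart: over 16975 tested genes, its log2 ratio to the mean of DMSO 10 and 12 correlated with the GC content of the transcript at r = 0.76. Over the 41 members that passed the filter on low counts this r was 0.82 (a description, since the points share the same libraries). Of these 41 members, 15 were highest and 13 were lowest in DMSO 11 among all 6 libraries. In DMSO 11, 12 members lay at least 2-fold from the mean of DMSO 10 and 12. Results are therefore given with and without DMSO 11. Leaving it out removes the most deviant control, so that the p-values may understate the spread between controls. Of 10 markers of ovarian carcinoma, 9 had a mean of at least 1 CPM, the exception being WT1, and their summed level was 8777 to 17476 CPM in DMSO and 5295 to 5855 CPM with fenbendazole. ERBB2, which fell (log2 fold change -1.29, adjusted p = 0.0422), made up 78.6% to 90.9% of that sum. Without it the sums overlapped, at 971 to 1595 CPM and 1071 to 1223 CPM. MUC1 was the only other marker of this list past the threshold (-1.05, adjusted p = 0.0299), while KRT7 (1.05), KRT8 (-0.04) and EPCAM (-0.11) were not. Without DMSO 11, KRT7 was called higher (1.63, adjusted p = 1.95e-09). In that fit ERBB2 (-0.89, adjusted p = 1.24e-07), MUC1 (-0.87, 0.000309) and PAX8 (-0.20, 0.0439) were called lower, and the other markers did not pass. With offsets for GC content and transcript length, MUC1 did not pass (-0.35, adjusted p = 0.662), while ERBB2 (-0.99) and KRT7 (1.61) did. Summed levels were 12.4 to 18.7 and 15.1 to 17.7 CPM for 6 leukocyte markers, with CD3E at 0 counts throughout, 59.2 to 101.9 and 62.1 to 64.2 CPM for 6 stromal markers, and 11.5 to 14.1 and 14.2 to 15.1 CPM for 5 endothelial markers. The part of these cell type markers in the results was not tested.

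**Figure D1:**
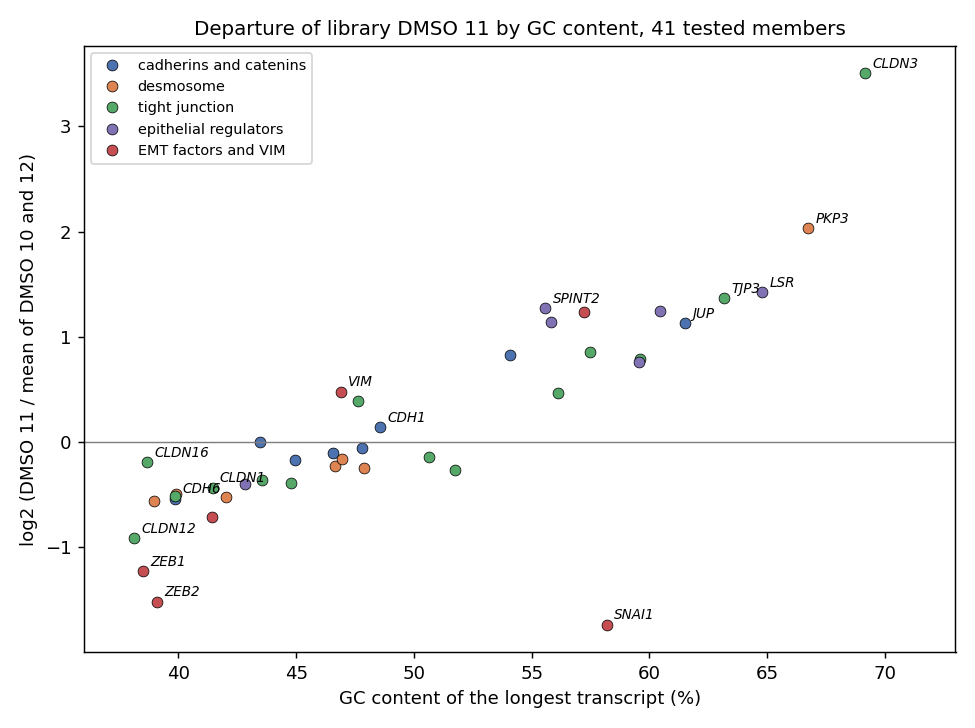
Each point is 1 of 41 tested members, by the GC content of its longest transcript (x axis, percent) and the log2 ratio of its CPM in DMSO 11 to the mean of DMSO 10 and 12 (y axis, 0.1 CPM added), coloured by class. GC-rich members such as CLDN3 (3.50) and PKP3 (2.03) lie high, and GC-poor ones such as ZEB1 (-1.23) and ZEB2 (-1.52) lie low. SNAI1 (-1.73) is an exception, with 3.01 CPM in DMSO 10, 0.483 in DMSO 11 and 0.669 in DMSO 12.

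With fenbendazole, 2 cadherins and 1 tight junction scaffold fell and 2 claudins rose, while the other 36 tested members did not pass the test. CDH1, E-cadherin, was 1.70-fold lower, CDH6, K-cadherin, 1.82-fold lower, and TJP3, the scaffold ZO-3, 6.78-fold lower (4.35-fold without DMSO 11). CLDN1, claudin-1, was 2.08-fold higher and CLDN16, claudin-16, 2.47-fold higher. These 2 genes adjoin each other on opposite strands, and whether their counts are independent was not tested. With fenbendazole 7, 8 or 9 left out, 0 of 41 members passed, and 0 passed at an adjusted p of 0.01. In edgeR's quasi-likelihood test, 5 of 41 members (12.2%) were below 0.05 after Benjamini-Hochberg adjustment, against 4.03% of all 17363 genes tested. Because the list was chosen with earlier results of these data known, this share and those below describe the list and do not test it. The 2 that rose compare with 3.11% of all genes called higher, and the 3 that fell with 0.921% called lower. The 3 libraries of each group did not overlap in 18 of 41 members, 6 higher and 12 lower with the drug, against 32.6% of all genes (17.0% higher and 15.5% lower). At an unadjusted p under 0.05, 4 members were higher (9.76%) and 11 lower (26.8%), against 10.8% and 10.5% of all genes. DESeq2 called 2 members higher and 6 lower, against 6.11% and 4.28% of all genes with an adjusted p, and limma-voom called 2 and 2, against 3.42% and 0.898%. The median log2 fold change was -0.23 over the members and -0.06 over all genes tested. Without DMSO 11, 17 members (41.5%) passed, 7 higher and 10 lower, against 22.3% of all genes (13.1% higher and 9.23% lower), and the medians were -0.07 and -0.01. With all 6 libraries and offsets for GC content and transcript length, 14 members (34.1%) passed, 4 higher and 10 lower, against 21.6% of all genes (12.1% higher and 9.50% lower). In these bulk libraries, fewer cells that express a gene and less RNA per cell cannot be told apart.

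**Figure D2:**
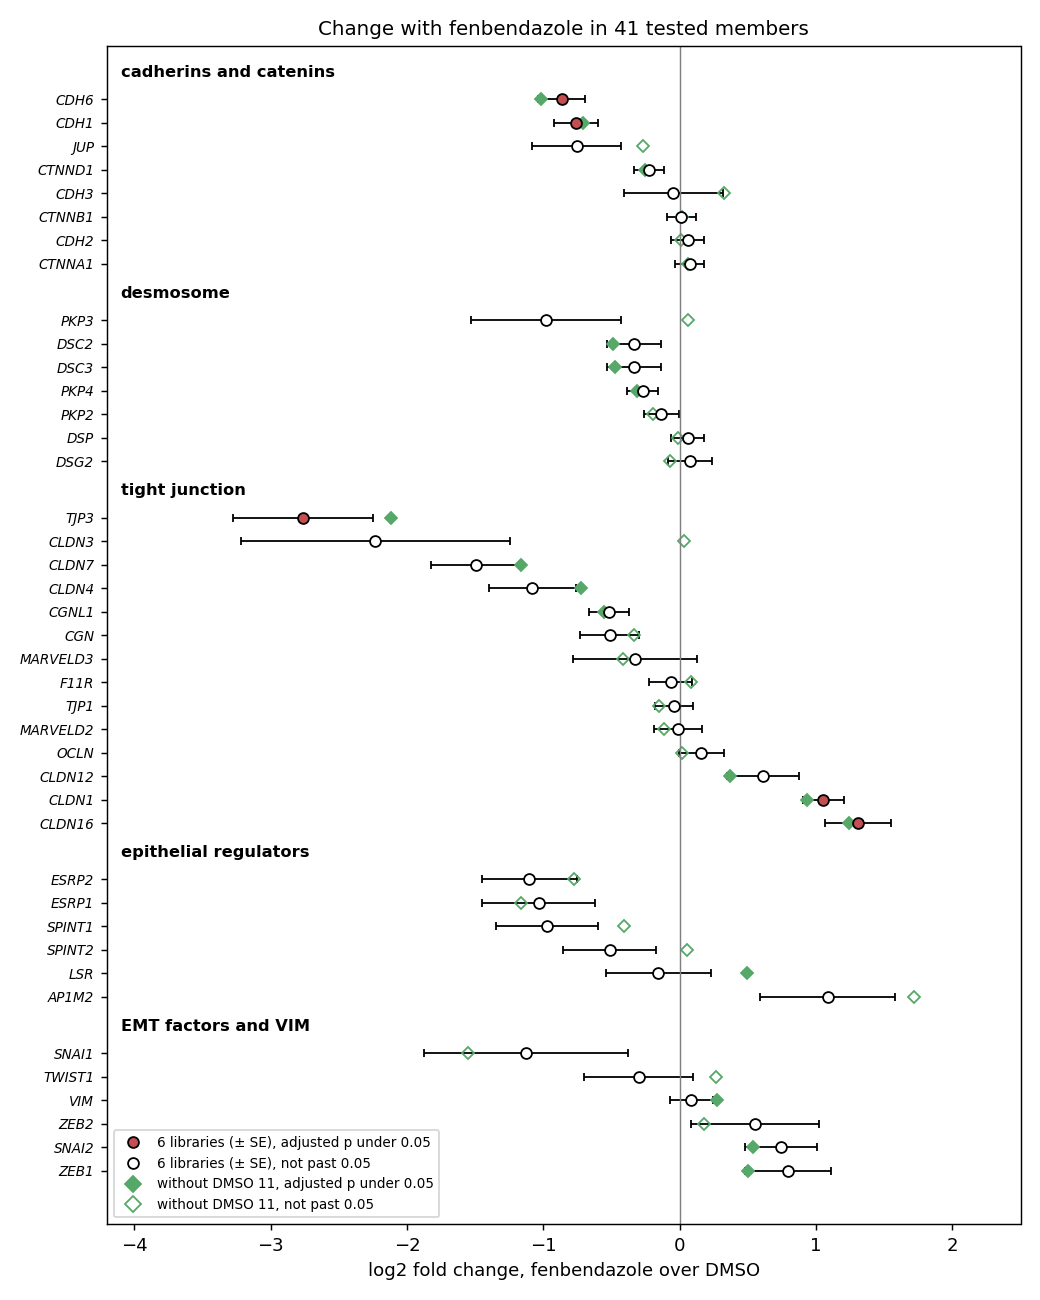
Log2 fold change of fenbendazole over DMSO (x axis) for the 41 tested members, grouped by class, as circles with the SE from all 6 libraries and as diamonds without DMSO 11. Filled symbols passed an adjusted p of 0.05: 5 circles and 17 diamonds. The diamonds of CLDN3 (0.03), PKP3 (0.06) and LSR (0.50) lie far from their circles (-2.23, -0.98 and -0.16).

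Among the cadherins, CDH1 and CDH6 fell and CDH2 did not pass the test. CDH1 (ENSG00000039068, chromosome 16, 68737292 to 68835537, GRCh38), the cadherin of epithelial adherens junctions, stood at 44.6, 43.5 and 34.3 CPM in DMSO 10, 11 and 12 and at 24.4, 23.5 and 24.2 CPM in fenbendazole 7, 8 and 9. Every treated library was below every control, and the treated libraries lay within 1 CPM of each other. The mean went from 40.8 ± 5.67 to 24.1 ± 0.47 CPM (SD, n = 3 each), a log2 fold change of -0.76 ± 0.161 (SE, adjusted p = 0.0453). The change was -0.71 ± 0.127 (adjusted p = 0.00119) without DMSO 11. It no longer passed when DMSO 10 (adjusted p = 0.137) or fenbendazole 7 (0.223), 8 (0.226) or 9 (0.226) was left out, with no filter (0.0626) and on FPKM (0.0611 with either pseudocount), with changes from -0.87 to -0.67 over 17 other settings.

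CDH6 (ENSG00000113361, chromosome 5, 31193686 to 31329146), a type II cadherin known from kidney and from ovarian and renal cancers, stood at 277, 188 and 271 CPM in DMSO and at 131, 128 and 145 CPM with fenbendazole. DMSO 11 was the lowest control, and it was still above all treated libraries. The mean went from 245 ± 49.3 to 135 ± 9.40 CPM. This is a log2 fold change of -0.87 ± 0.172 (adjusted p = 0.0368), against -1.02 ± 0.0698 (adjusted p = 1.95e-07) once DMSO 11 was left out. Leaving out DMSO 10 (adjusted p = 0.125), DMSO 12 (0.0811) or fenbendazole 7 (0.195), 8 (0.191) or 9 (0.159) ended the call.

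CDH2, N-cadherin, whose gain marks EMT, stood at 143, 121 and 130.2 CPM in DMSO and at 139, 135 and 137 CPM with fenbendazole. The groups overlapped, and the log2 fold change was 0.06 ± 0.118 (adjusted p = 0.802), between -0.03 and 0.12 over the other settings. Per unit of transcript length, in the deposited FPKM, CDH2 was 3.93, 3.35 and 4.61 times the level of CDH1 in DMSO 10, 11 and 12 and 6.65, 6.91 and 6.39 times in fenbendazole 7, 8 and 9. CDH2 and CDH6 were near each other in the controls, with a ratio of 0.954 to 1.28, and CDH2 was 1.93 to 2.06 times CDH6 with the drug. CDH3, P-cadherin, was low at 1.39 to 2.63 CPM in all libraries, and its groups overlapped.

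The catenins, which link cadherins to actin, gave 0 calls among 4 in edgeR's test. CTNNB1, beta-catenin, which also acts in Wnt signalling, stood at 235, 229 and 223 CPM in DMSO and at 238, 235 and 221 CPM with fenbendazole, a log2 fold change of 0.01 ± 0.108 (adjusted p = 0.955). CTNNA1, alpha-catenin, the member of this class with the highest FPKM, stood at 759, 694 and 687 CPM and at 757, 760.0 and 735 CPM. Their groups overlapped. CTNND1, p120-catenin, which holds cadherins at the surface, was lower in all treated libraries (250.5 to 261 CPM) than in the controls (287 to 321 CPM). Its log2 fold change was -0.23 ± 0.110 (adjusted p = 0.277), and -0.25 ± 0.0625 (adjusted p = 0.00998) without DMSO 11, with adjusted p from 0.00686 to 0.584 over the other settings. JUP, plakoglobin, which serves adherens junctions and desmosomes alike, stood at 61.7, 124 and 51.8 CPM in DMSO and at 43.8, 54.7 and 42.8 CPM with fenbendazole. It was highest in DMSO 11, and its log2 fold change was -0.75 with that library and -0.26 without it (adjusted p = 0.236 and 0.151). In the class as a whole 2 of 8 genes fell and 0 rose (median -0.14), against 0.921% and 3.11% of all genes. Without DMSO 11 the calls were 3 lower and 0 higher (median -0.12), against 9.23% and 13.1% of all genes.

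**Figure D3:**
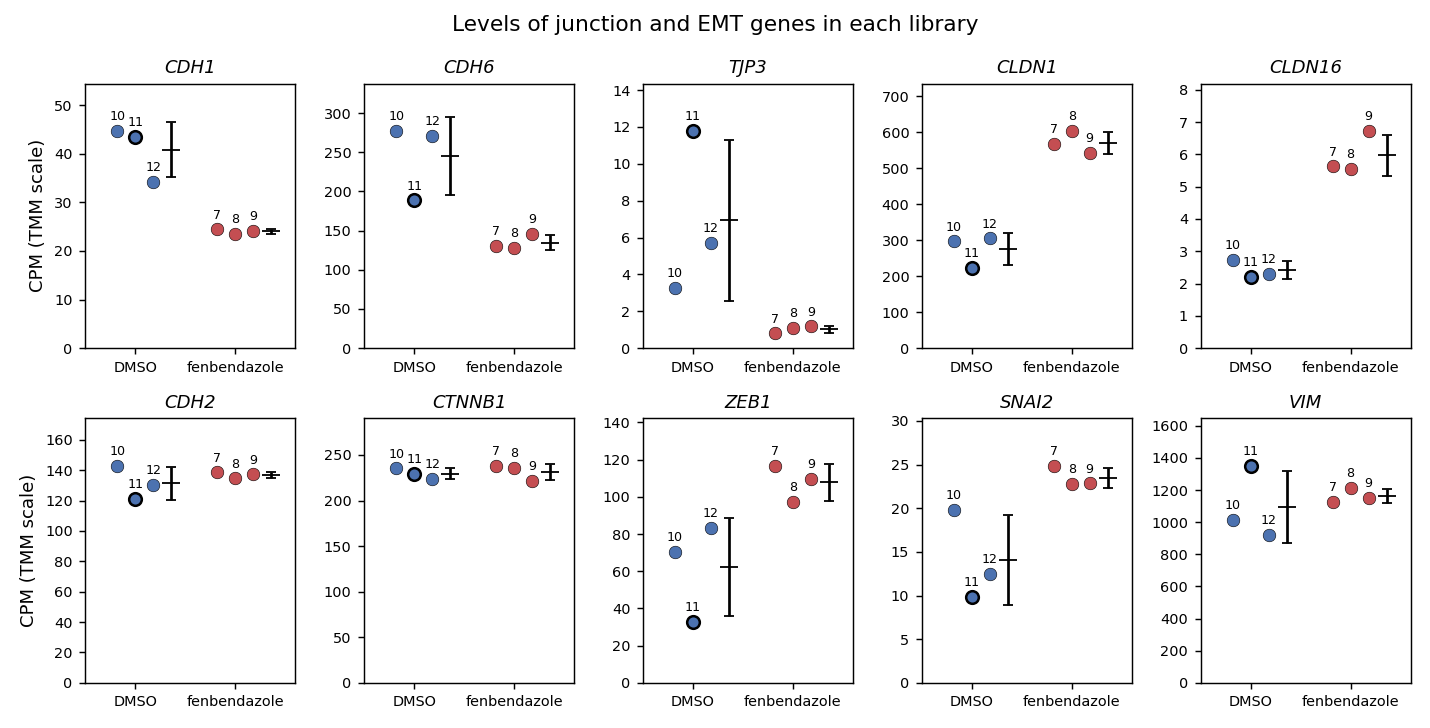
CPM on the TMM scale (y axis, from 0) of 10 members in each library, with DMSO in blue and fenbendazole in red, the library number above each point, a heavy outline on DMSO 11, and the mean ± SD (n = 3) as a bar. The upper row holds the 5 genes past the threshold, whose groups do not overlap. In the lower row CDH2, CTNNB1 and VIM overlap, while ZEB1 and SNAI2 do not overlap but did not pass the test.

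Of the 14 tight junction genes 2 rose and 1 fell (median log2 fold change -0.20), against 3.11% and 0.921% of all genes. Without DMSO 11 the calls were 3 higher and 4 lower (median -0.13), against 13.1% and 9.23% of all genes. The 2 that rose, CLDN1 and CLDN16, are neighbours on chromosome 3 and run in opposite directions. CLDN1 (ENSG00000163347, chromosome 3, 190305707 to 190322446), a barrier-forming claudin, had the highest FPKM of its class. It stood at 297, 223 and 305 CPM in DMSO and at 568, 603 and 543 CPM with fenbendazole. The groups were far apart, the lowest treated library being well above the highest control. The mean went from 275 ± 45.2 to 571 ± 30.3 CPM. The log2 fold change was 1.05 ± 0.150 (adjusted p = 0.0109), against 0.93 ± 0.0650 (adjusted p = 2.18e-07) once DMSO 11 was left out. The call was lost without fenbendazole 7 (adjusted p = 0.0748), 8 (0.0759) or 9 (0.0711), and it passed in the other 14 of 17 settings, with changes from 0.85 to 1.14.

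CLDN16 (ENSG00000113946, chromosome 3, 190322541 to 190412138), known for magnesium reabsorption in the kidney, was low, its DMSO libraries holding 49, 50 and 31 counts and its treated libraries 85, 77 and 114. These are 2.73, 2.19 and 2.31 CPM and 5.63, 5.56 and 6.71 CPM, and the groups did not overlap. The log2 fold change was 1.31 ± 0.242 (adjusted p = 0.0275), against 1.25 ± 0.268 (adjusted p = 0.0044) once DMSO 11 was left out. Leaving out DMSO 10 (adjusted p = 0.0741), DMSO 12 (0.0696) or fenbendazole 7 (0.133), 8 (0.122) or 9 (0.155) ended the call. In GENCODE v29, also on GRCh38, 1 noncoding CLDN16 transcript starts at 190322541, next to the start of CLDN1 at 190322475 on the other strand, while its protein-coding transcripts start at 190387872 and 190388120. RefSeq places the starts of CLDN16 elsewhere, at 190290361 and 190388163. The first lies beyond the far end of CLDN1, so a transcript from it would span CLDN1 on the other strand. CLDN1 was far more abundant (275 against 2.41 CPM in DMSO), and whether its reads add to the CLDN16 count was not tested. Counts per gene do not tell these transcripts apart, and the labels do not state that strand was kept. Of the other tested genes within 300 kb, IL1RAP differed by 0.68 ± 0.189 on the log2 scale (adjusted p = 0.0988) and P3H2 by -0.19 ± 0.129 (adjusted p = 0.426), neither past the threshold.

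The 65 bases between both GENCODE starts (GRCh38, chr3:190322476-190322540, minus strand, from RefSeq) are shown because the genes that flank them rose together. Capitals mark matches to the GC box GGGCGG on either strand. There were 2, and 24.0% of all RefSeq promoter stretches of the same length and place held at least 1. The E-box CAGGTG was not matched in these bases.
CLDN1 to CLDN16: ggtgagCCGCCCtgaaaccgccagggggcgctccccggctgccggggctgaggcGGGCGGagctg

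TJP3 (ENSG00000105289, chromosome 19, 3708362 to 3750813), which encodes ZO-3, an epithelial scaffold under the tight junction, showed the largest fall of the 5 called members. Its DMSO libraries held 59, 268 and 77 counts and its treated libraries 12, 15 and 20, or 3.29, 11.8 and 5.73 CPM and 0.794, 1.08 and 1.18 CPM. The controls differed widely among themselves, with DMSO 11 the highest, and each of them was above all treated libraries. The log2 fold change was -2.76 ± 0.511 (adjusted p = 0.0288) and -2.12 ± 0.379 (adjusted p = 0.00121) without DMSO 11. The call was lost without DMSO 12 (adjusted p = 0.0515), without fenbendazole 7 (0.167), 8 (0.137) or 9 (0.142), with limma-voom (0.0716) and on FPKM with a pseudocount of 1 (-1.23, adjusted p = 0.0768). The change was -1.97 with quality weights for each library and -2.17 with the offsets for GC content and length, past the threshold in both. Its annotated span overlaps APBA3 by 42 bases on the other strand, for which the log2 fold change was -0.87 (adjusted p = 0.291).

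RefSeq gives TJP3 a start inside the gene at which the E-box CAGGTG, a site type that ZEB and SNAI factors bind, lies just before the first base. Its other RefSeq start, at 3708384, had 0 matches to this E-box and 1 to the GC box GGGCGG in the 250 bases before it. The 250 bases before the inner start (GRCh38.p14, chr19:3721487-3721736, plus strand) are shown with the E-box (CAGGTG, near the right end) and 1 GC box (GGGCGG) in capitals. Of all 250-base promoter windows in RefSeq, 17.5% held this E-box and 42.5% this GC box on either strand. Counts per gene do not tell which start was used, and binding to this E-box was not tested.
TJP3: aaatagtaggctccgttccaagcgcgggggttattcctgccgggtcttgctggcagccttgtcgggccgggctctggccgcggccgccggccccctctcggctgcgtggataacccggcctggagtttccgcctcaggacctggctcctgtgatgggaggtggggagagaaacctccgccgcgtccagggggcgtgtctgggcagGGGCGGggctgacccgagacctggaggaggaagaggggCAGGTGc

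The other scaffold of this kind in the list, TJP1 (ZO-1), had overlapping groups, at 298, 224 and 289 CPM in DMSO and 271, 249 and 268 CPM with fenbendazole. Its log2 fold change was -0.04 ± 0.143 (adjusted p = 0.888). The difference between TJP3 and TJP1 was not tested. OCLN, occludin, MARVELD2, tricellulin, and F11R, the adhesion molecule JAM-A, also had overlapping groups and log2 fold changes of 0.16, -0.01 and -0.07. The cytoplasmic scaffold genes CGN (cingulin) and CGNL1 (paracingulin) were lower in all treated libraries. CGNL1 stood at 37.3 to 44.4 CPM in DMSO and 26.9 to 29.4 CPM with fenbendazole, a log2 fold change of -0.52 ± 0.149 (adjusted p = 0.105). It was -0.56 ± 0.115 (adjusted p = 0.00332) without DMSO 11, with adjusted p from 0.00167 to 0.38 over the other settings. For CGN the log2 fold change was -0.51 ± 0.214 (adjusted p = 0.223).

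Among the remaining claudins, CLDN7 and CLDN4 were lower in all treated libraries without passing the threshold. CLDN7, claudin-7, stood at 6.52, 11.5 and 6.62 CPM in DMSO and at 3.64, 2.89 and 2.24 CPM with fenbendazole, a log2 fold change of -1.49 ± 0.327 (adjusted p = 0.0522). It passed in 8 of 17 other settings, with adjusted p from 0.00169 to 0.235. The fit without DMSO 11 was among those 8 (-1.16 ± 0.274, adjusted p = 0.00767). CLDN4, claudin-4, an ovarian carcinoma marker, stood at 7.91, 13.3 and 6.62 CPM and at 4.30, 5.20 and 3.71 CPM, a log2 fold change of -1.08 ± 0.316 (adjusted p = 0.111). It was -0.72 ± 0.242 (adjusted p = 0.0475) without DMSO 11 and passed in 5 of 17 settings, with adjusted p from 0.0146 to 0.376. Both were highest in DMSO 11. CLDN3, claudin-3, differed most between DMSO 11 and the other controls. It stood at 1.17, 14.4 and 1.19 CPM in DMSO and at 1.32, 1.23 and 1.06 CPM with fenbendazole. Its log2 fold change was -2.23 ± 0.987 (adjusted p = 0.246) with DMSO 11 and 0.03 ± 0.470 (adjusted p = 0.969) without it. CLDN12, claudin-12, ran the other way, at 12.7 to 24.5 CPM in DMSO and 28.5 to 34.6 CPM with fenbendazole (0.61 ± 0.265, adjusted p = 0.238). It was the third tight junction gene called higher without DMSO 11, at 0.37 ± 0.126 (adjusted p = 0.0496). Counting that fit, it passed in 2 of 17 other settings, with adjusted p from 0.0422 to 0.528. Its span overlaps CDK14 and GTPBP10 on the same strand, so reads may be shared. MARVELD3, a relative of occludin, was at 0.433 to 0.942 CPM and its groups overlapped.

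Of 7 desmosome genes, 0 passed edgeR's test, 0 passed with DESeq2 or limma-voom, and 1, lower with the drug, had an unadjusted p under 0.05 (14.3%, against 10.5% of all genes). Their median log2 fold change was -0.27, and -0.20 without DMSO 11. PKP4, a plakophilin-related protein also called p0071 and the member of this class with the highest FPKM over both groups, stood at 476, 417 and 455 CPM in DMSO and at 384, 374 and 359 CPM with fenbendazole. The groups did not overlap, and the log2 fold change was -0.27 ± 0.113 (adjusted p = 0.221). DSP, desmoplakin, which anchors keratin filaments, and DSG2, the desmosomal cadherin desmoglein-2, had overlapping groups and log2 fold changes of 0.06 ± 0.122 and 0.08 ± 0.163. Without DMSO 11, 3 genes passed, all lower: PKP4 (-0.31 ± 0.0598, adjusted p = 0.00191), the desmocollin gene DSC2 (-0.49 ± 0.114, 0.00705) and the desmocollin gene DSC3 (-0.48 ± 0.126, 0.0151). Of all genes, 9.23% were called lower in that fit. In DMSO 11, DSC2 and DSC3 (26.1 and 22.2 CPM) lay among the treated libraries (26.0 to 29.2 and 20.9 to 23.5 CPM) and below DMSO 10 and 12. Over the other settings the adjusted p ran from 0.000817 to 0.538 for PKP4, 0.00476 to 0.62 for DSC2 and 0.00989 to 0.658 for DSC3. PKP3, plakophilin-3, was at 50.2 CPM in DMSO 11 and at 11.1 to 13.5 CPM in the other 5 libraries. PKP2, plakophilin-2, had overlapping groups (-0.13 ± 0.127).

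Of 10 epithelial regulators 6 passed the filter on low counts. Those 6 gave 0 calls with edgeR, DESeq2 and limma-voom, and 3, lower with the drug, had an unadjusted p under 0.05, where 10.5% of all genes did. The 4 not tested were GRHL2 and OVOL1, transcription factors of epithelial identity, ST14, the protease matriptase, and RAB25, an epithelial trafficking GTPase. GRHL2 had 2 counts in DMSO 11 and 0 in the other libraries, RAB25 had 4 in DMSO 12 and 0 elsewhere, OVOL1 had 0 to 9, and ST14 had 0 to 11. The splicing regulators ESRP1 and ESRP2, which direct epithelial exon use, were low and were lower in all treated libraries. ESRP1 stood at 1.11, 0.878 and 1.26 CPM in DMSO and at 0.662, 0.433 and 0.471 CPM with fenbendazole (-1.03 ± 0.412, adjusted p = 0.206). ESRP2 stood at 2.34, 4.43 and 2.83 CPM and at 1.39, 1.804 and 1.296 CPM (-1.10 ± 0.350, adjusted p = 0.131), and its span overlaps the far more abundant NFATC3 on the other strand. AP1M2, a subunit of the epithelial clathrin adaptor AP-1B, was higher in all treated libraries, at 0.390, 0.878 and 0.298 CPM in DMSO and 0.993, 1.299 and 1.18 CPM with fenbendazole (1.09 ± 0.494, adjusted p = 0.254). Without DMSO 11, its highest control, the value was 1.72 ± 0.616 (adjusted p = 0.0622), and it passed in 1 of 16 other settings, with adjusted p from 0.0314 to 0.588.

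The protease inhibitor genes SPINT1 and SPINT2 and the tricellular junction gene LSR (angulin-1) all peaked in DMSO 11. SPINT2, the regulator with the highest FPKM, stood at 167, 381 and 149 CPM in DMSO and at 166, 177 and 146 CPM with fenbendazole. Its log2 fold change was -0.51 ± 0.344 (adjusted p = 0.418), and 0.05 ± 0.0859 (adjusted p = 0.728) without DMSO 11. LSR stood at 29.5, 74.3 and 25.9 CPM in DMSO and at 38.4, 39.6 and 38.6 CPM with fenbendazole, so that the treated libraries lay between DMSO 11 and the other controls. Its log2 fold change was -0.16 ± 0.383 (adjusted p = 0.839) with all libraries and turned to 0.50 ± 0.112 (adjusted p = 0.00584) without DMSO 11, with adjusted p from 0.00241 to 0.965 over the other settings. For SPINT1 the log2 fold change was -0.97 ± 0.374 (adjusted p = 0.197) and of -0.41 ± 0.213 without DMSO 11. The class median was -0.74 with and -0.18 without DMSO 11, where 1 gene, LSR, was called higher. Of all genes, 13.1% were called higher in that fit.

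Of the 6 EMT factors and VIM, 0 passed with edgeR, DESeq2 or limma-voom, 2, higher with the drug, had an unadjusted p under 0.05 (10.8% of all genes did), and the median log2 fold change was 0.32. ZEB1, a repressor of epithelial genes, stood at 70.3, 32.7 and 83.3 CPM in DMSO and at 117, 97.2 and 109.5 CPM with fenbendazole. All treated libraries were above all controls, and DMSO 11 was far below the other controls. The log2 fold change was 0.80 ± 0.314 (adjusted p = 0.204) and 0.50 ± 0.0981 (adjusted p = 0.00263) without DMSO 11. Over the other settings the adjusted p ran from 0.000239 to 0.452, and 4 of 17 passed. Reads of ZEB1-AS1, which overlaps it on the other strand, may be shared, and the same holds for CLDN7 with ELP5, VIM with VIM-AS1, PKP4 with PKP4-AS1, CTNNA1 with LRRTM2, CTNNB1 with ULK4 and MARVELD3 with PHLPP2.

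SNAI2, the factor Slug, stood at 19.8, 9.83 and 12.5 CPM in DMSO and at 24.8, 22.8 and 22.8 CPM with fenbendazole. Again the groups did not overlap, and the log2 fold change was 0.74 ± 0.267 (adjusted p = 0.174). It was 0.54 ± 0.174 (adjusted p = 0.042) without DMSO 11, the only one of 17 other settings in which it passed, with a highest adjusted p of 0.42. VIM, the intermediate filament protein vimentin, was among the most abundant members, at 1016, 1349 and 920.2 CPM in DMSO and 1124, 1212 and 1150 CPM with fenbendazole. Its log2 fold change was 0.09 ± 0.159 (adjusted p = 0.785), and without DMSO 11, the highest control, it was 0.27 ± 0.0618 (adjusted p = 0.0062). It passed in 3 of 17 settings, with adjusted p from 0.0062 to 0.985, and was 0.02 (adjusted p = 0.946) with offsets for GC content and transcript length. SNAI1, the factor Snail, was at 54 counts in DMSO 10, the other 5 libraries holding 7 to 13, a log2 fold change of -1.13 ± 0.749 (adjusted p = 0.414) that became 0.15 (adjusted p = 0.897) without DMSO 10. ZEB2 (0.55 ± 0.469) and TWIST1 (-0.30 ± 0.400) had overlapping groups at 1.404 to 5.96 and 3.50 to 9.04 CPM.

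Compared per unit of transcript length, levels of the members spanned the whole range from absent to very abundant. In the deposited FPKM, VIM led with 523 ± 129 in DMSO and 516 ± 28.2 with fenbendazole (SD, n = 3 each), followed by CTNNA1 (182 ± 4.60 and 177 ± 9.25). CLDN1 went from 72.3 ± 9.31 to 142 ± 9.54 FPKM, so that with the drug its libraries (133 to 152) lay above those of DSP (71.8 to 75.2), while in DMSO those of CLDN1 (61.7 to 79.3) and DSP (73.2 to 87.5) overlapped. Among the cadherins the order in DMSO was CDH2 (28.4 to 31.8) and CDH6 (22.2 to 30.8), which overlapped, then CDH1 (6.31 to 8.49) and CDH3 (0.267 to 0.863). With fenbendazole CDH2 (28.8 to 30.0), CDH6 (14.1 to 15.02), CDH1 (4.21 to 4.51) and CDH3 (0.365 to 0.530) did not overlap. Of the EMT factors, ZEB1 (5.61 to 13.1 in DMSO, 15.6 to 17.9 with fenbendazole) and SNAI2 (4.18 to 7.90 and 8.52 to 9.19) overlapped in the controls.

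**Figure D4:**
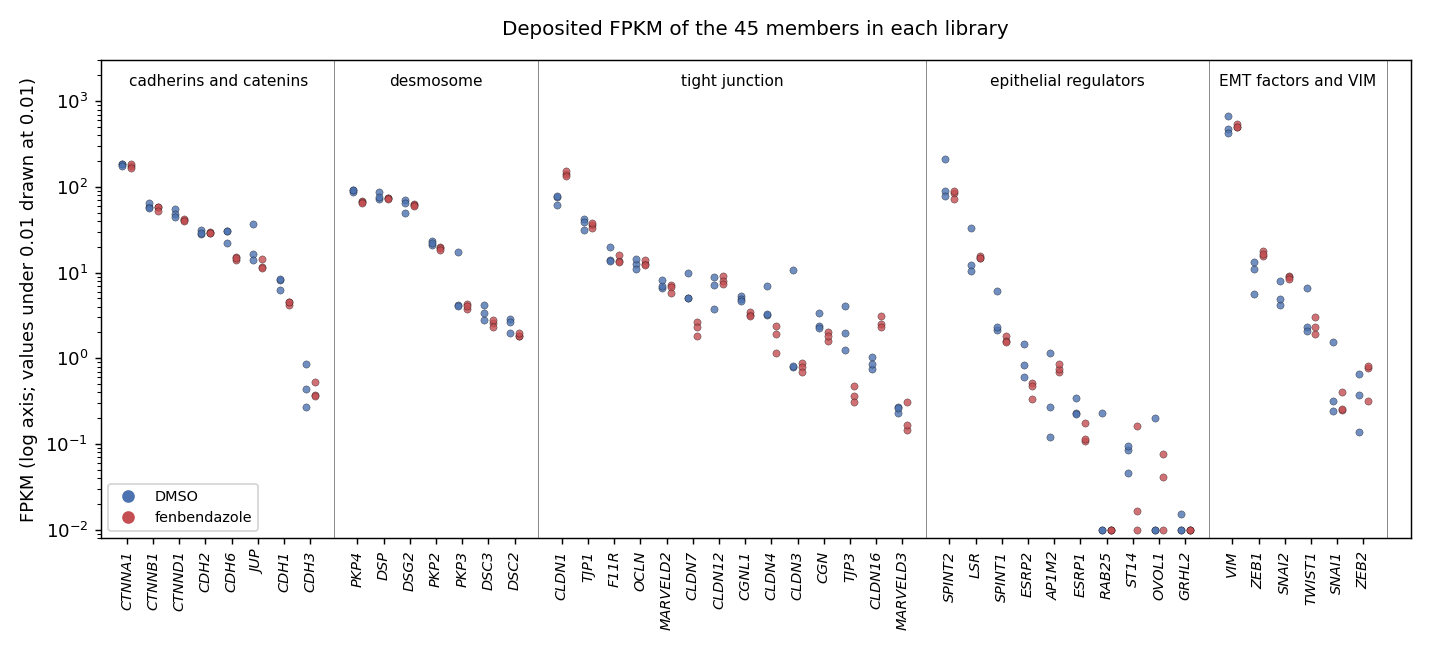
Deposited FPKM (y axis, log scale, values under 0.01 drawn at 0.01) of all 45 members in each of 3 DMSO (blue) and 3 fenbendazole (red) libraries, by class and in order of the mean in DMSO. VIM, CTNNA1 and SPINT2 are highest, and GRHL2, OVOL1, ST14 and RAB25 lie near the bottom.

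RefSeq promoter windows of 250 bases were matched for 28 of the 45 members. CDH1, CDH6 and SNAI2 were not among them. The E-box CAGGTG was found on either strand in 14 of 49 windows, from 12 members, against 17.5% of all windows. One window of CLDN7 held 4 matches, and of the called members TJP3 held 1 and CLDN1 and CLDN16 none. The AP-1 motif TGANTCA was found in windows of CDH2, CLDN4 and CLDN16 (6.59% of all windows). A match is a sequence feature and not a measured site.

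Of 78 further genes of the same pathways, 61 were tested, and 1 rose and 0 fell (1.64%, against the 4.03% of all genes), while 7 had higher and 10 lower levels at an unadjusted p under 0.05 (11.5% and 16.4%, against 10.8% and 10.5% of all genes). DESeq2 called 4 of them higher and 3 lower (6.11% and 4.28% of all genes), and limma-voom 2 and 0 (3.42% and 0.898% of all genes). The gene that rose was CTNNAL1, which encodes alpha-catulin, a relative of alpha-catenin. It stood at 81.3, 49.4 and 76.6 CPM in DMSO and at 134, 127 and 140.0 CPM with fenbendazole, a log2 fold change of 0.95 ± 0.198 (adjusted p = 0.044). The rise was 0.77 ± 0.0761 (adjusted p = 7.24e-06) without DMSO 11. By group, the 10 tested genes of adherens junctions had a median log2 fold change of 0.22, the 2 of desmosomes -0.24, the 25 of tight junctions and polarity -0.12, the 12 epithelial genes 0.10 and the 12 EMT genes -0.10. Without DMSO 11, 11 of the 61 were called higher and 13 lower, against 13.1% and 9.23% of all genes (22.3% in either direction).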

How the data were processed

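The authors deposited raw counts per gene for 6 libraries and, per the file headers, FPKM for the same libraries. CASAVA 1.8, HISAT2 2.1.0, StringTie 1.3.4b and edgeR with GRCh38 are named in the submitters' processing notes. The counting program, its strand setting and the annotation were not given in the sources used here. TRIzol was used to isolate RNA, per the labels' protocols. For the tests, edgeR 4.0.16 in R 4.3.3 took the counts through TMM scaling, its own filter on low values, a robust quasi-likelihood fit with its F test, and Benjamini-Hochberg adjustment over all 17363 tested genes. The SE was derived from the F statistic. DESeq2 1.42.0 and limma 3.58.1 (voom, quality weights, and log2 of FPKM plus 1 or 0.1) were alternatives, as were other scalings and filters, each library left out, and offsets for GC content and length of the longest GENCODE v29 transcript (known for 97.8% of genes). Simulated counts with known changes served to check the fit. They held no library that departs from its group as DMSO 11 does, so the check does not cover that feature. Replicate pairs differed by more than sampling noise. Chi-square over its degrees of freedom was 79.2 and 87.2 for DMSO 11 with DMSO 10 and 12, and 4.86 to 8.47 for the other pairs. All members were counted. Values of every library are given for members past the threshold, for those without overlap and at least 2-fold changed, for the highest FPKM of each class, and for CDH1, CDH2, CTNNB1, ZEB1, SNAI2 and VIM. The members and lists were chosen with earlier results of these data known. The plots come from matplotlib 3.10.9 (Python 3.11.15).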

Additional observations from a re-analysis of the deposited data

How the results depend on the processing

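No paired analysis was possible because no replicate number occurs in both groups. Against 5 called members (2 higher, 3 lower) of 41 and 700 of all genes, DESeq2 gave 8 (2 and 6) and 1697, quality weights 17 (7 and 10) and 4406, GC and length offsets 14 (4 and 10) and 3661 (2048 and 1613), and an adjusted p of 0.01 gave 0 and 210. FPKM plus 1 gave 3 members. Leaving out 1 library gave 0 to 17 members and 147 to 3946 genes. It was 0 members without each of fenbendazole 7, 8 and 9 (8, 9 and 8 at an unadjusted p under 0.05 in edgeR, or 19.5%, 22.0% and 19.5%, against 13.1%, 13.8% and 12.7% of all genes), 2 without DMSO 10 or DMSO 12, and 17 without DMSO 11. Fewer libraries reduce power. Upper-quartile scaling split the 686 genes into 455 higher and 231 lower, against 540 and 160. GC and length offsets without DMSO 11, chosen after seeing the data, gave 16 members (5 and 11) and 4458 genes. That fit is among the other settings counted above for single members. The 5 called members kept their direction in all settings, and 0 members were called in opposite directions. LSR, not called with all libraries (-0.16), turned to 0.41 with quality weights, 0.52 with GC and length offsets, 0.50 without DMSO 11 and 0.53 with both, and was lowest, -0.42, without DMSO 12. The other scalings, filters, limma-voom and FPKM plus 0.1 gave 4 to 6 members. The cause of these shifts was not tested. The 4 members left out by the filter had at most 11 counts in any library, too few to show a difference.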
